A study of Mus musculus with 6 samples.

Results

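The genes examined here encode splicing factors: the SR proteins, the heterogeneous nuclear ribonucleoproteins (hnRNPs), further regulators of alternative splicing, proteins that recognise the 3′ splice site, and the kinases of SR proteins. They were chosen by a list of 47 gene symbols, and for each gene the probe set with the highest mean over the 6 arrays was kept among those annotated to it and to no other gene. Of the 47, 44 were measured in this way, out of 18193 genes on the array. Srsf7 has no probe set listed in the annotation used here. The 4 probe sets of Hnrnpa3 and the 3 of Rbm10 are also annotated to a second gene, and they were not used.

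RNA came from 393P, a mass population of cells cultured from a primary lung tumour of p53R172H∆g/+ K-rasLA1/+ mice. In the MKK4 shRNA group (3 arrays) the cells carried a vector for a short hairpin RNA against MKK4, which Map2k4 encodes and which phosphorylates the stress kinases JNK and p38. In the control group (3 arrays) the same cells carried a scrambled control vector. The labels give retroviral infection in one place and Lipofectamine transfection in another, and they call the arrays of each group triplicate cultures. Each group is thus 1 cell population, and p-values reflect only how its cultures varied. Expression was read on 1-colour Affymetrix arrays as an intensity per probe set, so that cells depleted of MKK4 can be set against cells with a scrambled hairpin.

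Splicing is carried out by the spliceosome, whose U2 part recognises the branch point and the 3′ splice site with the help of the U2AF proteins. SR proteins mostly bind enhancers in exons and favour their inclusion, and their arginine-serine domains are phosphorylated by the SRPK and CLK kinases. Many hnRNPs and PTB proteins repress exons, while RBFOX, MBNL, CELF and Quaking proteins act for or against an exon according to where they bind. In epithelial tumour cells ESRP1 and RBM47 are known for epithelial splice patterns, and RBFOX2 and Quaking for mesenchymal ones. Many SR and related genes also limit their own messenger RNA through exons or introns that lead to its decay.

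Across the measured splicing factor genes the changes were small. Limma with Benjamini-Hochberg adjustment over all genes called 3 of the 44 higher (Rbfox2, Hnrnpab and Qk) and 4 lower (Mbnl2, Ptbp3, Rbm47 and Srsf5) with the shRNA, and 37 did not pass. The 7 called genes were 15.9% of the 44, against 11.8% of all genes tested, where 6.37% were higher and 5.39% lower. At an unadjusted p under 0.05 there were 16 of the 44, against 24.1% of all genes, a share not matched for brightness. Among the 6105 genes at least as bright as the dimmest of the 44, a level chosen after the values were seen, 25.4% were called. The largest change was -0.31 on the log2 scale (Mbnl2), the median was -0.04, and the median of all genes was -0.01. On the kept probe sets the 95% interval of the difference stayed inside a 1.5-fold change in either direction for all 44 genes. Intervals of some other probe sets went past it, such as Sf3b1 1418561_at (-0.61 to -0.19 in log2). Tra2b did not pass on its kept probe set, but its probe sets moved in opposite directions.

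The count of 7 called genes fell whenever 1 array was left out. It was 3, 4 and 3 without shRNA replicates 1, 2 and 3. Without control replicates 1, 2 and 3 it was 5, 6 and 4. The number called among all genes also fell, from 2139 to between 1159 and 1662. In the normalized values the groups did not overlap for 20 of the 44 genes, against 28.5% of all genes. That share was not matched for brightness. Some of the 20 genes did overlap in the deposited values, among them Srsf1, Hnrnpa2b1, Celf1 and Clk1. Within the shRNA group replicate 1 was the lowest array for 22 of the 44 genes (50%), against 37.4% of genes at least as bright as the dimmest. Within the control group replicate 1 was the highest for 22 of the 44 genes (50%), against 32.9% of the same brighter genes. Neither count was planned, and neither share was matched to the levels of the 44 genes.

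**Figure D1:**
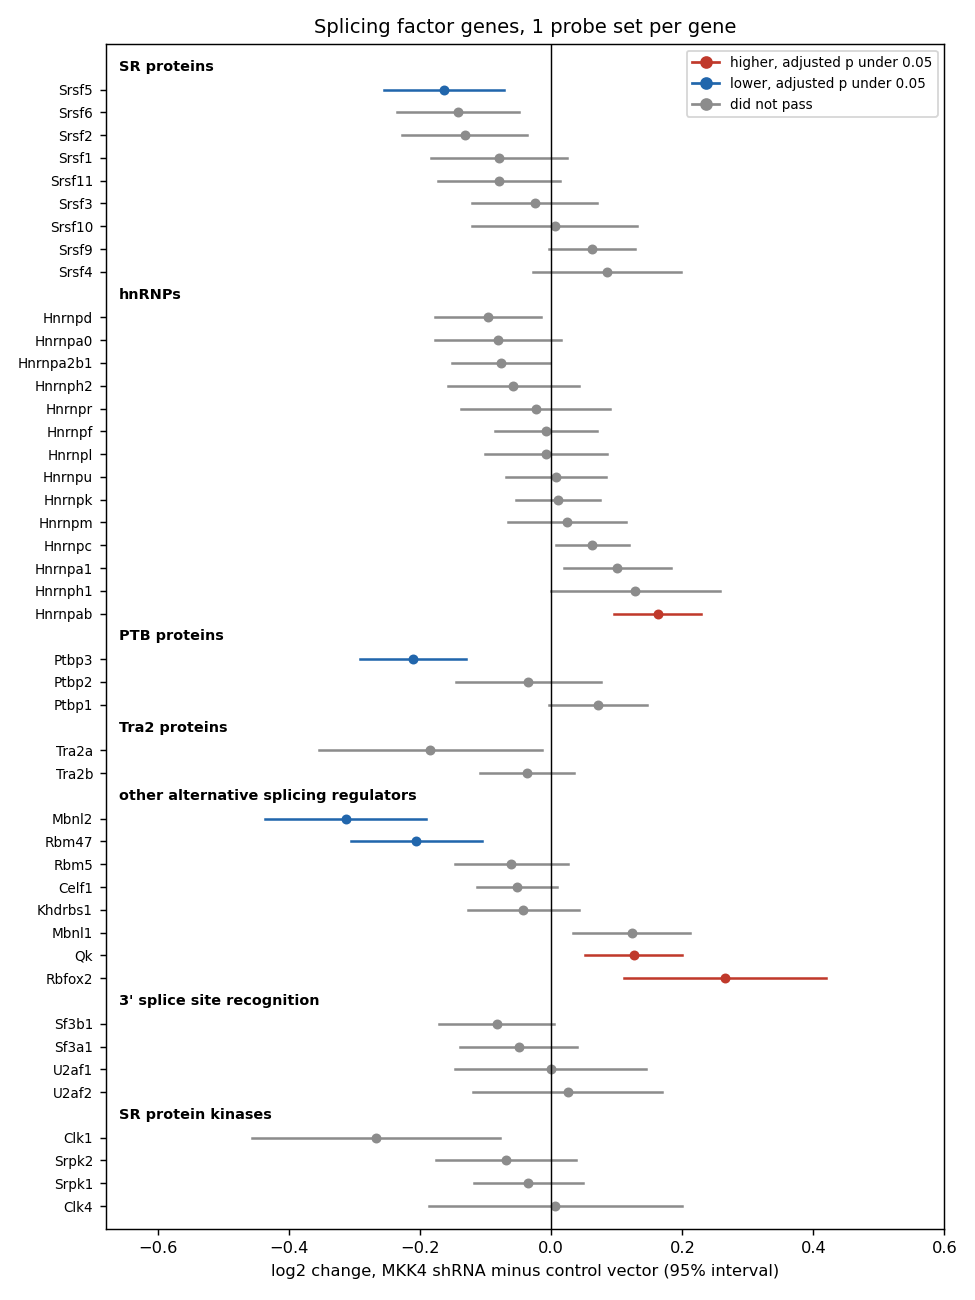
Log2 change (MKK4 shRNA minus control vector, x axis) of the 44 measured splicing factor genes, grouped by role, with points for the estimate and bars for its 95% interval. The 3 genes called higher are red, the 4 called lower are blue, and the values run from -0.31 for Mbnl2 to 0.26 for Rbfox2.

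The arrays and the labels were checked first. Map2k4 gave 240, 295 and 287 units in the shRNA cultures, against 700, 638 and 597 units in the control cultures. It fell by 1.21 on the log2 scale (SE 0.079, limma adjusted p = 0.000127), and an exact permutation test (two-sided) returned p = 0.1, which is the minimum for 3 against 3. The array medians were 92 to 95.76 units, and the arrays correlated at r = 0.991 to 0.996 across genes, which are not independent replicates. The bacterial control trpnX, read by 3 probe sets, reached at most 39.47 units on any array, and every one of the 44 genes lay above 64 units in at least one group. All 11 epithelial marker genes were above 64 units in a group. Their summed level was 62025.5 to 63736.6 units with the shRNA and 63480.8 to 64268.8 units in controls, with 5 called lower and 1 higher. Of 9 lung lineage markers, Nkx2-1, Sftpd, Scgb1a1 and Napsa stayed below 64 units in both groups. So did Col3a1, Pdgfrb, Dcn and Thy1 among 8 fibroblast markers, Ptprc, Cd3e, Itgam and Lyz2 among 7 measured leukocyte markers, and Pecam1, Vwf and Cldn5 among 6 endothelial markers. The remaining measured markers of these 4 lists were above 64 units in a group. Examples are Foxa1 (means of 2253 units with the shRNA and 2250 in controls), Col1a2 (188 and 205), Csf1r (725 and 771) and Kdr (345 and 394). So these lists do not show that such markers were absent. None of the lung, fibroblast, leukocyte or endothelial markers was called. In such bulk RNA, fewer cells of a type and less RNA per cell cannot be told apart. The 3′ over 5′ signal ratio of 18S ribosomal RNA was 0.277, 0.358 and 0.309 on the shRNA arrays, against 0.395, 0.392 and 0.424 on the control arrays, while the ratios of Gapdh and Actb overlapped between groups. The Tfrc ratios also overlapped, at 2.202, 2.226 and 2.885 on the shRNA arrays and 2.099, 2.26 and 1.508 on the control arrays. The part of these ratios in the results was not tested.

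Among the SR proteins, 1 of 9 measured genes fell and 8 did not pass. Srsf5, an SR protein gene, gave 3143, 3175 and 3392 units in the shRNA cultures, against 3552, 3722 and 3478 units in the control cultures. Every shRNA culture lay below every control culture. The log2 change was -0.16 (SE 0.039, 1.12-fold lower, limma adjusted p = 0.0337). The call held in 5 of 16 other settings, and leaving out any 1 array ended it (adjusted p from 0.0521 to 0.131).

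Srsf6, another SR protein gene, did not pass on its kept probe set, with 4327, 4723 and 4819 units with the shRNA and 4907, 5046 and 5129 units in controls (log2 -0.14, limma adjusted p = 0.0605). All 4 of its probe sets were on the lower side, at -0.21, -0.19, -0.15 and -0.14 in log2 change. One of them, 1416721_s_at, passed when every probe set was tested on its own (adjusted p = 0.0424). Srsf1, the SR protein also known as ASF/SF2, gave 4948, 5644 and 5672 units with the shRNA and 5700, 5496 and 5683 units in controls, and the deposited values of the groups overlapped (log2 -0.08, 95% interval -0.18 to 0.02, limma adjusted p = 0.349). A dimmer Srsf1 probe set, 1428100_at, gave 371, 414 and 403 units with the shRNA, against 524, 483 and 472 units in controls. That probe set passed on its own at -0.32 (adjusted p = 0.0122), while the test of unequal change across the Srsf1 probe sets did not pass (adjusted p = 0.268). The uncalled SR protein genes ranged from -0.14 (Srsf6) to 0.08 (Srsf4) in log2 change, with adjusted p of 0.0605 to 0.974. Of the 10 uncalled listed genes given with their value on every array, Srsf6, Tra2a, Mbnl1 and Clk1 were chosen after the values were seen.

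Tra2a and Tra2b encode SR-like proteins that bind GA-rich exonic enhancers, and Tra2b is known to reduce its own protein through an exon that carries stop codons. The promoter window of Tra2b is printed with those of Mbnl2 and Hnrnpab, because their results held in most of the other settings tried and each has 1 window in the table used. The windows run from 250 bases before to 50 bases after the transcription start (RefSeq, GRCm38.p6) and are written 5′ to 3′ on the gene's strand. They were searched on both strands for the AP-1 site TGANTCA, the motif of Jun, for the cyclic AMP response element (CRE) TGACGTCA, a motif of ATF2, and for the shorter core TGACG, which is contained in the full CRE. Capitals mark this core, in the letters TGACG or their complement CGTCA.
Tra2b (chr16:22265956-22266255, minus strand): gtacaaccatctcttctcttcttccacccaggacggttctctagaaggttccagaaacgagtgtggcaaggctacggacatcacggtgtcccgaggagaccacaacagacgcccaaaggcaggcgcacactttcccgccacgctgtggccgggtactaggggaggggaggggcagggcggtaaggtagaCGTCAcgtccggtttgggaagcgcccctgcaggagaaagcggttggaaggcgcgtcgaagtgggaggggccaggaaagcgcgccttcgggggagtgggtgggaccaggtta
Mbnl2 (chr14:120275419-120275718, plus strand): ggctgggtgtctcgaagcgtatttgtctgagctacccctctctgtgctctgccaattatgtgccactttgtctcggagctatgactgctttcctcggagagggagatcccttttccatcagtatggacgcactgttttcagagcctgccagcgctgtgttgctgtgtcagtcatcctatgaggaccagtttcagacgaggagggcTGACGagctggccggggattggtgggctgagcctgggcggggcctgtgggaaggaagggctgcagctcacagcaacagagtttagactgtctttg
Hnrnpab (chr11:51606832-51607131, minus strand): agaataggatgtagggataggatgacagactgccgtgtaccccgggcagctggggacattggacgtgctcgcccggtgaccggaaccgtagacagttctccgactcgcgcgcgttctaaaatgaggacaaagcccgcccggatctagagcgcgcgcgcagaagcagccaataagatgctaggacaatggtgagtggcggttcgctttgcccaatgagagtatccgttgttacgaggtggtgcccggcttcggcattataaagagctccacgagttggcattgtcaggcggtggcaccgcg
The Tra2b and Mbnl2 windows hold 1 core each and no AP-1 site or full CRE, and the Hnrnpab window holds none of the 3 motifs. Over 42 of the 47 genes with at least 1 window, 30 of 60 windows held the core, against 20.8% of 32851 windows of all genes. The AP-1 site was in 1 of the 60 windows (Hnrnpa1), against 7.81% of all, and the full CRE in 2 (Tra2a and Clk4), against 1.79%. The G and C content had a median of 64.2% in the 60 windows, against 52.7% in all windows. These counts describe the letters in the windows only.

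The probe sets of Tra2b passed a test of unequal change over 5471 genes (limma diffSplice F test, adjusted p = 4.27e-05 over the 3 Tra2b probe sets with a mean of at least 64 units). On 1441466_at the values were 412, 476 and 479 units with the shRNA, against 341, 326 and 307 units in the control cultures. All 3 shRNA cultures were above all 3 controls. This probe set rose by 0.45 on the log2 scale (95% interval 0.31 to 0.59, adjusted p = 0.0058 over every probe set). On 1427432_a_at the values were 2570, 2960 and 2908 units with the shRNA, against 3356, 3246 and 3237 units in controls. Here all 3 shRNA cultures were below all 3 controls, and the probe set fell by 0.24 on the log2 scale (95% interval -0.33 to -0.14, adjusted p = 0.015). On the kept probe set, 1419543_a_at, the values were 3176, 3362 and 3468 units with the shRNA and 3468, 3332 and 3373 units in controls. The groups overlapped there (log2 -0.04, 95% interval -0.11 to 0.03, adjusted p = 0.546 over genes). The unequal change passed in all 12 other settings in which Tra2b could be tested, with adjusted p up to 0.0138. Apart from the within-array differences given below, these settings used the same F test. That F test called more unchanged genes in simulated data than its threshold allows. On within-array differences the result was lost without shRNA replicate 2 or any 1 control array. The sources used here do not say which transcript form each probe set reads.

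**Figure D2:**
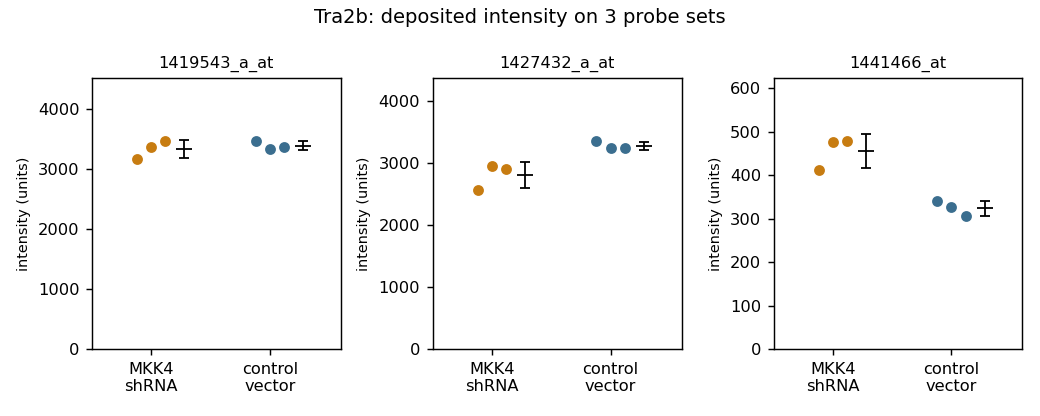
Deposited intensity (units, y axes from 0) of Tra2b on 3 probe sets, with 1 point per array, MKK4 shRNA at left and control vector at right, and the mean with its SD (n = 3) beside each group. The shRNA points lie below the controls on 1427432_a_at (2570 to 2960 against 3237 to 3356 units) and above them on 1441466_at (412 to 479 against 307 to 341 units).

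Of the 33 listed genes with at least 2 probe sets of 64 units or more, 2 passed the test of unequal change, against 4.51% of all genes tested. The other was Sf3b1, the U2 component that holds the branch point region (adjusted p = 0.0234). Its probe set 1418561_at gave 87.9, 84.8 and 96.5 units with the shRNA, against 124, 124 and 120 units in controls (log2 -0.40, adjusted p = 0.0455 over every probe set). The 3 brighter Sf3b1 probe sets changed by -0.02 to -0.08. The Sf3b1 result passed in 4 of 13 other settings and did not pass on within-array differences between probe sets (adjusted p = 0.0704), a test added after seeing the data, where Tra2b was the only listed gene to pass, against 2.3% of all genes. For Tra2b that test passed for 1441466_at against the kept probe set (difference 0.49, adjusted p = 0.0138) and not for 1427432_a_at against it (difference -0.20, adjusted p = 0.154). It was lost without shRNA replicate 2 (0.215) and without control replicate 1 (0.0551), 2 (0.141) or 3 (0.131). Without shRNA replicate 1 the number of listed genes with unequal change was 4.

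Tra2a did not pass. Its kept probe set gave 2519, 2866 and 2612 units with the shRNA and 3363, 2647 and 3003 units in controls, with overlapping groups (log2 -0.18, 95% interval -0.35 to -0.01, limma adjusted p = 0.17). Of its other probe sets above 64 units, 3 gave log2 changes of -0.24, -0.30 and -0.31 and 1 gave 0.19, and none of these passed on its own.

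Among the hnRNP genes, 1 of 14 measured rose and 13 did not pass. Hnrnpab, which encodes an A/B-type hnRNP also called CBF-A, gave 6732, 6684 and 6696 units with the shRNA, against 6050, 5704 and 5910 units in controls. All shRNA cultures were above all controls. The log2 change was 0.16 (SE 0.029, 1.12-fold higher, limma adjusted p = 0.00954). Other Hnrnpab probe sets rose by 0.21, 0.22 and 0.23 on their own, while 1426114_at, with 2668 ± 38.1 units with the shRNA and 2658 ± 113 units in controls (SD, n = 3), changed by -0.01. Hnrnpab lies on chromosome 11, where 15.2% of all genes were called higher and 1.8% lower and the median log2 change was 0.06. After each array was centred on its chromosome medians Hnrnpab changed by 0.10 and no longer passed (adjusted p = 0.147, the highest over its settings). The call held in 15 of 17 other settings.

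The other hnRNP genes ranged from -0.10 (Hnrnpd) to 0.13 (Hnrnph1) in log2 change, with 95% intervals from -0.18 to 0.26. Hnrnpa2b1, a close relative of Hnrnpa1, gave 6650, 7196 and 7346 units with the shRNA and 7480, 7179 and 7317 units in controls, and the deposited values overlapped (log2 -0.08, limma adjusted p = 0.196). Hnrnpa1, a repressor of exons, changed by 0.10 (adjusted p = 0.118) and Hnrnpc, which binds uridine tracts, by 0.06 (0.156). Hnrnpk, Hnrnpu, Hnrnpl and Hnrnpf changed by 0.01, 0.01, -0.01 and -0.01.

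Of the PTB genes, 1 of 3 fell. Ptbp3, also known as Rod1 and a relative of the exon repressor Ptbp1, gave 1081, 1180 and 1152 units with the shRNA, against 1352, 1325 and 1250 units in controls. The groups did not overlap. The log2 change was -0.21 (SE 0.035, 1.16-fold lower, limma adjusted p = 0.00728), and its 2 dimmer probe sets gave -0.16 and -0.14. The call held in 14 of 17 other settings and was lost with the probe sets averaged (adjusted p = 0.164), with centred medians (0.0587) and without a trend in the prior variance (0.052). Ptbp1 gave 3273, 3385 and 3426 units with the shRNA and 3073, 3197 and 3226 units in controls (log2 0.07, adjusted p = 0.229). Ptbp2, the neuronal relative, changed by -0.03 (adjusted p = 0.737).

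Among the other regulators of alternative splicing, 2 of 8 rose, 2 fell and 4 did not pass. Mbnl2, a muscleblind protein gene, gave 1608, 1750 and 1620 units with the shRNA, against 2274, 1941 and 1944 units in controls. The highest shRNA culture lay below the lowest control. It fell by 0.31 on the log2 scale (SE 0.053, 1.24-fold lower, limma adjusted p = 0.00793). Its 2 next brighter probe sets gave -0.26 and -0.16, and the 2 dimmest of those above 64 units gave 0.06 and 0.04. The call held in 16 of 17 other settings, and the mean of the 5 probe sets did not pass (-0.13, adjusted p = 0.169). It held narrowly without a trend in the prior variance (limma adjusted p = 0.0499) and without shRNA replicate 3 (0.0496). Mbnl1, its relative, gave 3534, 3745 and 3760 units with the shRNA and 3276, 3514 and 3248 units in controls. It changed by 0.12 and did not pass (adjusted p = 0.0853).

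Rbm47, an RNA-binding protein gene expressed in epithelia, gave 758, 859 and 764 units with the shRNA, against 929, 913 and 885 units in controls. The groups did not overlap. The log2 change was -0.21 (SE 0.043, 1.15-fold lower, limma adjusted p = 0.0194), and the other probe set above 64 units gave -0.14. The call held in 7 of 17 other settings and was lost without shRNA replicate 1 or 3 and without any 1 of the control replicates (adjusted p from 0.0501 to 0.0712).

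Rbfox2, which encodes a protein that binds the motif UGCAUG, gave 589, 658 and 604 units with the shRNA, against 553, 457 and 508 units in controls. The lowest shRNA culture was just above the highest control. The log2 change was 0.26 (SE 0.067, 1.20-fold higher, limma adjusted p = 0.0399). Its other probe set above 64 units, 1434938_at, gave 324, 297 and 283 units with the shRNA and 301, 297 and 343 units in controls, a change of -0.07 with overlapping groups. The 2 probe sets below 64 units gave 0.28 and 0.22 and did not pass on their own. The call held in 4 of 17 other settings. Rbfox2 lies on chromosome 15, where 16.9% of genes were called higher, and after chromosome centring it changed by 0.21 and did not pass (adjusted p = 0.112). It was also lost without any 1 shRNA replicate and without control replicate 2 or 3 (0.0879 to 0.148).

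Qk, the gene of Quaking, gave 5083, 5102 and 5308 units with the shRNA, against 4834, 4689 and 4454 units in controls. All shRNA cultures were higher. The log2 change was 0.13 (SE 0.032, 1.09-fold higher, limma adjusted p = 0.0417), the smallest among the called genes. The other Qk probe sets ran in both directions: 1451179_a_at, 1429735_at and 1429736_at gave 0.14, 0.19 and 0.15, and 1417073_a_at gave -0.10 with 4468, 4421 and 4605 units with the shRNA and 4891, 4773 and 4537 units in controls. The test of unequal change did not pass for Qk (adjusted p = 0.515). The rise held in 4 of 17 other settings and was lost without any 1 array (0.0502 to 0.154).

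Celf1, a regulator that opposes MBNL proteins on many exons, gave 6172, 6256 and 6501 units with the shRNA and 6413, 6512 and 6257 units in controls (log2 -0.05, limma adjusted p = 0.282). Its probe set 1427413_a_at gave 1956, 1955 and 2003 units with the shRNA, against 2340, 2313 and 2176 units in controls, and passed on its own (-0.23, adjusted p = 0.0149). Unequal change across the Celf1 probe sets did not pass (adjusted p = 0.227). Khdrbs1, the gene of Sam68, changed by -0.04 and Rbm5 by -0.06, and neither passed.

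**Figure D3:**
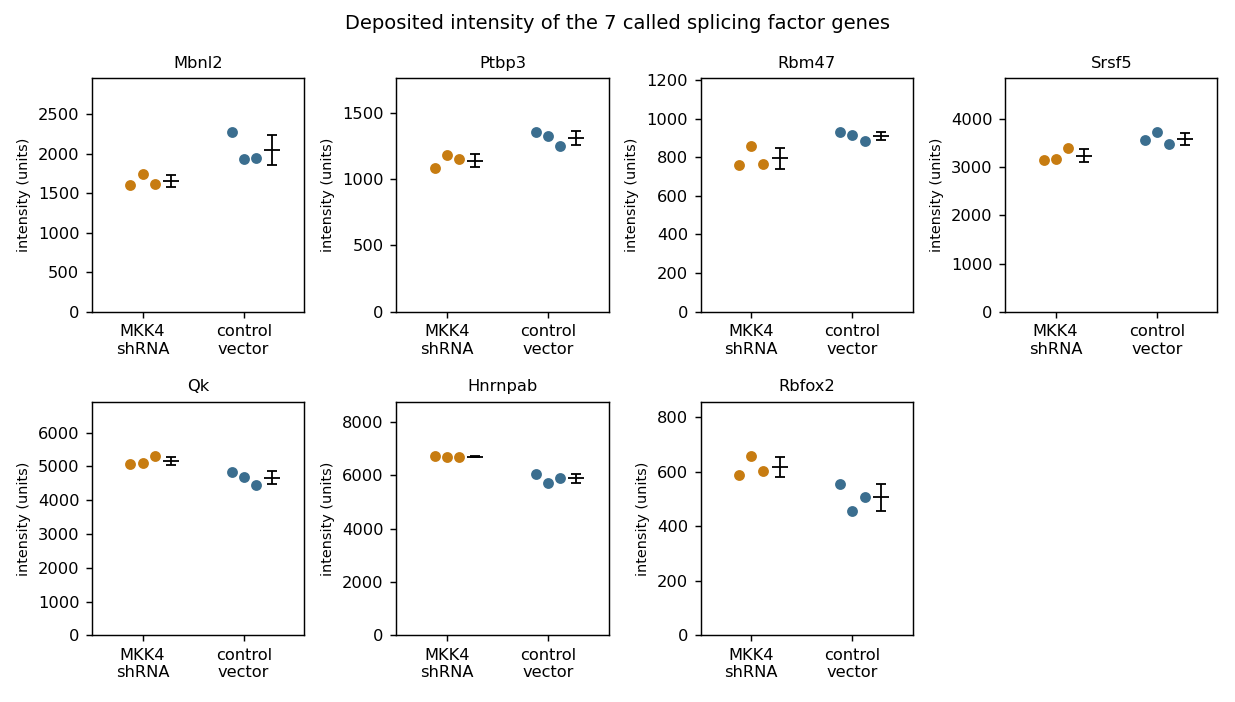
Deposited intensity (units, y axes from 0) of the 7 called splicing factor genes, with 1 point per array, MKK4 shRNA at left and control vector at right, and the mean with its SD (n = 3) beside each group. Mbnl2, Ptbp3, Rbm47 and Srsf5 are lower with the shRNA, Qk, Hnrnpab and Rbfox2 are higher, and no shRNA point crosses a control point.

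None of the 4 genes of 3′ splice site recognition passed. U2af1 and U2af2, the U2AF subunits, changed by -0.001 and 0.02 in log2, and the U2 components Sf3a1 and Sf3b1 by -0.05 and -0.08 on their kept probe sets, with limma adjusted p of 0.232 to 0.996. None of the 4 kinase genes passed. Clk1, the kinase that phosphorylates SR proteins in the nucleus, gave 890, 1090 and 1117 units with the shRNA, against 1343, 1272 and 1086 units in controls. The lowest control culture lay below the 2 higher shRNA cultures in the deposited values, and the log2 change of -0.27 had a 95% interval of -0.46 to -0.08 (limma adjusted p = 0.0791). It passed in 2 of 16 other settings, without the dimmer genes and without control replicate 3. Clk4 gave 0.01 and Srpk1, a mainly cytoplasmic SR protein kinase, -0.04. Srpk2 gave 1556, 1885 and 1757 units with the shRNA and 1880, 1787 and 1763 units in controls (log2 -0.07, adjusted p = 0.436).

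Tested one by one over all probe sets of the array, 13 of the 156 probe sets of the 44 genes passed, 5 higher and 8 lower. The share over all probe sets was 6.37%, not matched for brightness. The 5 that rose were 4 of Hnrnpab and 1 of Tra2b. The 8 that fell belonged to Tra2b, Mbnl2, Srsf1, Srsf6, Ptbp3, Celf1, Rbm47 and Sf3b1. Srsf5, Rbfox2 and Qk did not pass in this larger test (adjusted p = 0.0571, 0.0644 and 0.0667).

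**Figure D4:**
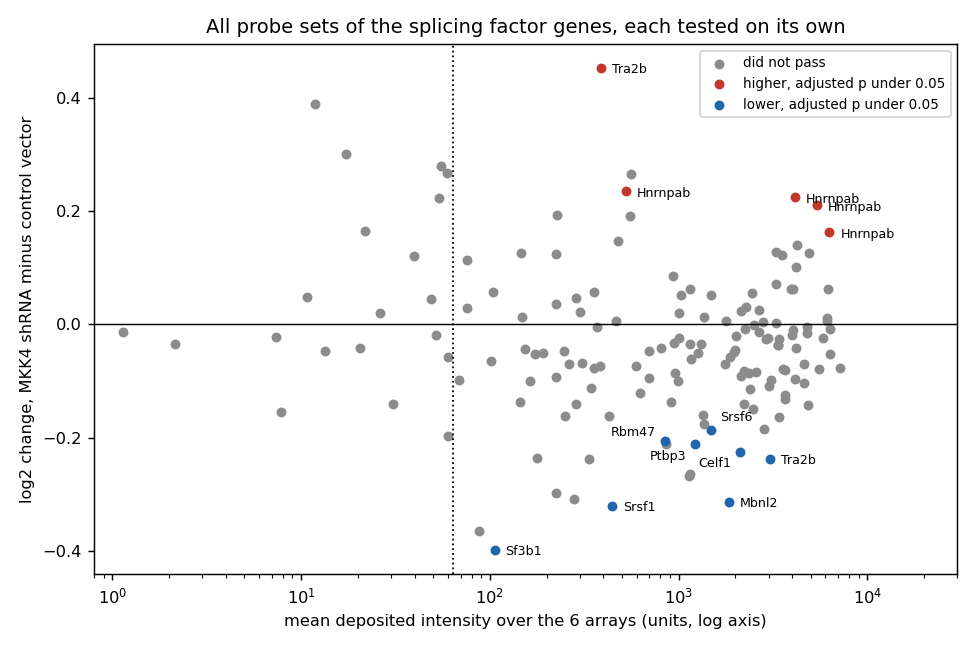
Log2 change (MKK4 shRNA minus control vector, y axis) of the 156 probe sets of the 44 genes against their mean deposited intensity over the 6 arrays (x axis, log scale), each tested on its own. The 5 called higher are red, the 8 called lower are blue, and the dotted line marks 64 units, below which no probe set passed.

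Other genes of the splicing machinery, in 5 lists, gave 11 higher and 15 lower of 170 measured (15.3%, against 11.8% of all genes tested), with a median log2 change of 0.00. Of the 6105 genes at least as bright as the dimmest measured listed gene, 25.4% were called. The genes of these 5 lists were not matched for brightness. Of 41 genes in a list of core snRNP proteins and associated factors, 6 rose and 5 fell (median 0.03). Among them the polyuridine-binding factor Puf60 (0.29), the U5 GTPase Eftud2 (0.26) and the SF3b subunit Phf5a (0.26) rose, and the helicase Ddx46 (-0.29) fell. Phf5a passed in all 17 other settings, Eftud2 in 16, Puf60 in 14 and Ddx46 in 10. Ddx46 changed by -0.003 with its probe sets averaged (limma adjusted p = 0.991) and was lost without shRNA replicate 2 or any 1 control array. Eftud2 changed by 0.14 (0.448) with probe sets able to hit several transcripts left out. Of 33 genes in a list of Prpf genes, PRP19 complex genes and factors of the catalytic steps, 3 rose and 2 fell (median -0.04). This list also includes snRNP proteins, so it and the core snRNP list do not separate snRNP genes from others. Here the U5 core protein Prpf8 (0.28), Prpf40b (0.28) and Prpf3 (0.27) rose and Ctnnbl1 (-0.17) fell. Prpf8 passed in all 17 other settings, against 10 for Prpf3, 7 for Prpf40b and 6 for Ctnnbl1. Prpf40b was lost without any 1 array (limma adjusted p from 0.0516 to 0.14), Prpf3 without any but control replicate 2, and Ctnnbl1 without any but control replicate 1. Of 15 genes of the exon junction complex and nonsense-mediated decay 1, Pnn, fell (-0.23), with a list median of 0.08. Of 30 further SR-related and kinase genes, Rbm39 (-0.27) and Luc7l2 (-0.24) fell and 28 did not pass (median 0.00). Of the 17 other settings, Luc7l2 passed in 12, Pnn in 11 and Rbm39 in 7. Luc7l2 changed by -0.08 with its probe sets averaged (limma adjusted p = 0.382). Pnn was lost without shRNA replicate 2 or control replicate 2, Luc7l2 without shRNA replicate 2, and Rbm39 without shRNA replicate 1 or 2 or control replicate 1 or 2.

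Of 51 other RNA-binding regulators 2 rose and 5 fell (median -0.04). Esrp1, which encodes an epithelial splicing regulator, gave 2384, 2464 and 2542 units with the shRNA, against 2938, 3014 and 2747 units in controls. It fell by 0.25 on the log2 scale (SE 0.039, limma adjusted p = 0.00537), and the groups did not overlap. It passed in all 17 other settings, narrowly without a trend in the prior variance (limma adjusted p = 0.0499). Its paralogue Esrp2 gave 279, 333 and 305 units with the shRNA and 286, 330 and 333 units in controls, with overlapping groups, and did not pass (log2 -0.06, 95% interval -0.25 to 0.13, limma adjusted p = 0.726). Mbnl3, the third muscleblind gene, rose by 0.28, while Raly (-0.24) and Zranb2 (-0.21) fell. Of the 17 other settings, Zranb2 passed in 9, Mbnl3 in 7 and Raly in 5. Leaving out shRNA replicate 2 or control replicate 2 ended all 3 of these calls. With probe sets able to hit several transcripts left out, Raly turned to 0.14 and did not pass (adjusted p = 0.519). The count of 26 called genes was 8 without shRNA replicate 2, 15 without shRNA replicate 3 and 14 without control replicate 2.

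The called splicing genes were also set beside all genes of their chromosomes. The chromosomes named were chosen after the values were seen, and their shares were not matched for brightness. Over the array, 25.4% of genes at least as bright as the dimmest measured listed gene were called, against 11.8% of all genes. On chromosome 2, 6 of 18 measured splicing genes fell (Aqr, Ctnnbl1, Raly, Rbm39, Snrnp200 and Snrpb2) and 0 rose, against 16.2% of all its genes lower and 2.07% higher. On chromosome 15, 5 of 10 rose (Rbfox2, Pcbp2, Phf5a, Prpf40b and Puf60) and 0 fell, against 16.9% of all its genes higher and 1.93% lower. On chromosome 11, 3 of 21 rose (Hnrnpab, Eftud2 and Prpf8) and 0 fell, which is near the share of all its genes, 15.2% higher and 1.8% lower. Other called genes ran against their chromosome. Ddx46 fell on chromosome 13, where 14.8% of genes were higher and 1.14% lower, and its change was -0.37 after centring. Qk rose on chromosome 17, where 2.4% were higher and 8.03% lower, and its change was 0.18 after centring. The genes of these sentences that the 4 largest of each list did not include were named after their values were seen. Of the 33 called splicing genes, 21 still passed after centring on chromosome medians, among them 5 of the 7 called listed genes, all but Hnrnpab and Rbfox2.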

How the data were processed

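Biotin-labelled RNA of 6 cultures was read on Affymetrix arrays. The authors deposited 1 intensity per probe set on a linear scale; how it was summarised, background-corrected and scaled is not given in the sources used here. From these, log2(intensity + 16) was computed and quantile-normalized (limma 3.58.1, R 4.3.3), so fold changes of dim genes are understated. Tests omitted 64 control probe sets. Symbols came from the platform annotation, updated through Entrez numbers to GRCm38.p6. Means and SDs are of deposited intensities.

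The comparison used limma (lmFit, eBayes with trend), adjusted by Benjamini-Hochberg over 18193 genes at 0.05. Unequal change between probe sets of a gene was tested with limma's diffSplice over probe sets with a mean of at least 64 units. Both tests were run on simulated data with known changes, in which the unequal-change test called more unchanged genes than its threshold allows. A further test on within-array differences was therefore added. The number of arrays limits the precision.

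Values are given for called genes, for genes with unequal probe sets, for up to 6 uncalled genes (the brightest of each role, by size of change), and for up to 4 called genes of each other splicing list. Outside this rule, the values of Srsf6, Tra2a, Mbnl1, Clk1 and Esrp2, those of single probe sets and the genes listed by chromosome were chosen after they were seen. Log2 changes of further uncalled listed genes, some with adjusted p, were also given outside the rule. The genes and lists were chosen with earlier results of these data known. Other settings covered scaling, pseudocounts of 1 and 64, a filter on dim genes, averaged or selected probe sets, the prior variance, a replicate block, chromosome centring, tests of each probe set, and omission of each array.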

Additional observations from a re-analysis of the deposited data

How the results depend on the processing

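Called listed genes numbered 7 as reported. The count (higher and lower) was 3 (1 and 2) on the values as deposited, 2 (1 and 1) with centred medians, 13 (5 and 8) without the dimmer genes, where fewer genes were tested, and 3 (1 and 2) with probe sets averaged. It was 1 (0 and 1) without a trend, 4 (1 and 3) over every probe set, 5 (2 and 3) with multi-transcript probe sets left out, and 7 (1 and 6) after chromosome centring. Leaving out 1 array gave 3 to 6 (1 to 3 higher, 2 to 4 lower). Other splicing genes called, 26 as reported, were 16 as deposited, 12 with centred medians, 16 with averages, 7 without a trend and 8 to 19 without 1 array. All called genes, 2139 as reported, were 1127 without a trend and 1159 to 1662 without 1 array.

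With the replicate block the counts were 3 listed genes (1 and 2), 13 other splicing genes and 1206 genes. Deviations of same-lettered cultures from their group means correlated at -0.031, -0.00607 and -0.114, against -0.0923 to 0.132 for cultures with different letters. With 3 cultures in each group, these values cannot tell whether the cultures were handled in pairs. Unequal change, 2 listed genes and 247 of all, was 1 and 105 with the block, 1 and 126 on within-array differences, 1 and 142 with multi-transcript probe sets left out, 1 listed gene as deposited, with a pseudocount of 64 and with no minimum, and 1 to 4 and 107 to 339 without 1 array. Omitting multi-transcript probe sets turned Tra2b to 0.45 (its probe set 1441466_at), Rbfox2 to -0.068 and Raly to 0.14, each through another probe set. Of 37 uncalled genes 19 changed sign and 8 passed in at least 1 of 17 settings. Where no value shows it, the cause was not tested. Dim probe sets limit what can be seen near 39.47 units.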
